A study of Rattus norvegicus with 8 samples.

Results

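Granins are the acidic secretory proteins packed into dense-core vesicles, the storage granules of peptide hormones and neuropeptides. The 7 genes described here are Chga and Chgb (chromogranins A and B), Scg2 and Scg3 (secretogranins II and III), Scg5 (the protein 7B2), Vgf (the precursor VGF) and Pcsk1n (the protein proSAAS). They were chosen by symbol, and all 7 were found among the 33294 genes of the deposited table. They were measured by poly(A)-selected RNA sequencing in the neurohypophysis (the neural lobe of the pituitary) of male Sprague Dawley rats aged 35 days, labelled as the control age, or 125 days, with 4 libraries at each age. The labels give no treatment other than age, and all rats were perfused with buffered saline under isoflurane before the lobe was frozen. The labels do not say whether the numbered libraries are different animals, and p-values therefore cover only the spread among these libraries, part of which may be technical.

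Granins gather with hormones in the trans-Golgi network and are carried into the forming vesicle, where prohormone convertases cut several of them into peptides. In the neural lobe such vesicles fill the axon endings of the vasopressin and oxytocin neurons, whose cell bodies lie in the hypothalamus. The endocrine cells of the intermediate and anterior lobes, which lie against the neural lobe, make granins as well. In bulk tissue, fewer cells of a type and less RNA per cell cannot be told apart.

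Values are depth-normalized counts, meaning gene read counts divided by 1 size factor per library, and libraries held 28429133 to 58696254 recovered reads. The lowest granin count in any library was 93 reads, for Vgf, and the other 6 members had at least 7256 reads in every library. Marker genes of the anterior lobe differed widely between libraries. Their summed value ran from 24441 to 1394850 at 35 days and from 6563 to 50241 at 125 days, and none of the 11 was at 0 in all libraries. As a mean log2 level over the 11 genes they stood at 8.66, 11.53, 13.32 and 10.65 in 35-day replicates 1 to 4, and at 8.83, 7.04, 9.01 and 9.01 in the 125-day replicates. The ages overlapped (difference -2.57, 5 of 11 called lower, exact permutation p = 0.114, two-sided, adjusted 0.190 over 5 marker lists, smallest p allowed 0.0286). The growth hormone gene Gh1 was highest in 35-day replicate 3 at 975243, against 3922 to 124177 in the other 35-day libraries. Pomc, a hormone precursor gene listed here as an intermediate lobe marker, was at 1957150 to 3724080 at 35 days, highest in replicate 3, and at 3555300 to 5272640 at 125 days. The other intermediate lobe markers did not all follow it. Pax7 (7697), Tbx19 (5563), Oacyl (9538) and Drd2 (13968) were lowest of the 35-day libraries in replicate 3, and Megf11 (306) and Gulo (7.63) highest. The mean level of 7 intermediate lobe markers differed by 0.14 between the ages (exact permutation p = 0.314, adjusted 0.392), and by 0.02 without Pomc (exact permutation p = 1). Gulo, 1 of the 7, was at 0 to 7.63 in the 8 libraries, yet this mean weights each marker equally. A level without Gulo was not tested, and the small difference does not show equal lobe content. Of the 6 intermediate lobe markers tested, 1 was called higher and 0 lower. For 10 markers of pituicytes, the resident glia, the difference was -0.68 (3 of 10 called lower, exact permutation p = 0.0571, adjusted 0.143). The 10 endothelial markers differed by -0.65 (7 of 10 called lower, exact permutation p = 0.0286, adjusted 0.143). Over all genes tested 8.85% were called higher and 8.87% lower. Of 4 markers of the magnocellular neurons, Avp and Oxt had values of at least 1369, while Sim1 and Otp, transcription factor genes of their cell bodies, had values of at most 13.7. Their mean level differed by 0.37 (exact permutation p = 0.429, adjusted 0.429), and of the 2 tested 1 was called higher.

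The promoters of 2 of the 6 members with a promoter sequence carry the letters TGACGTCA, the palindromic cyclic AMP response element (CRE) bound by factors such as CREB. They are shown because Vgf and Chgb changed in opposite directions below, while Scg2 shares the motif with Vgf. Sequences are from RefSeq (build GRCr8, which is not the build of the counts), in which 6 of the 7 members matched an entry. Chga did not, so its promoter was not searched. Each stretch has 60 bases, 5′ to 3′, with the element in capitals, and lies on the plus strand for Chgb and the minus strand for Scg2 and Vgf.
Vgf (chr12:25277077-25277136): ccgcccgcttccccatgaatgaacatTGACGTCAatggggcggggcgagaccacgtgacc
Scg2 (chr9:88256956-88257015): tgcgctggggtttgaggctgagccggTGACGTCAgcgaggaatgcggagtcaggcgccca
Chgb (chr3:140496562-140496621): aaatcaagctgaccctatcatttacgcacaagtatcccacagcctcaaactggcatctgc
The element begins 90 bases before the annotated start in Vgf and 123 bases before it in Scg2. It was searched on both strands in the window from 250 bases before to 50 after each start. It was not in that window of Chgb, Scg3, Scg5 or Pcsk1n, and 1.83% of 33469 promoters of the same length held it. The shorter letters TGACG, or their reverse complement, were in the windows of Scg3 and Scg5 but not of Chgb or Pcsk1n. They were in 21.2% of all promoters. The letters TATAAA or their reverse complement were found in the Vgf window among the 6 members, and in 14.2% of all promoters. These matches describe the letters only.

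Of the 7 granins, Chgb was higher at 125 days, Vgf was lower, and 5 did not pass the test. The test was limma on log2(value + 1) across 17919 genes, with calls at a Benjamini-Hochberg adjusted p below 0.05. Over all genes tested 17.7% were called, 8.85% higher and 8.87% lower, and the 2 of 7 members are read against those shares. The median log2 change (125 minus 35 days) was -0.02 over the members and 0.01 over all genes. The members ranged from -1.64 to 1.25, with the chromogranin genes Chgb and Chga on opposite sides of 0.

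**Figure D1:**
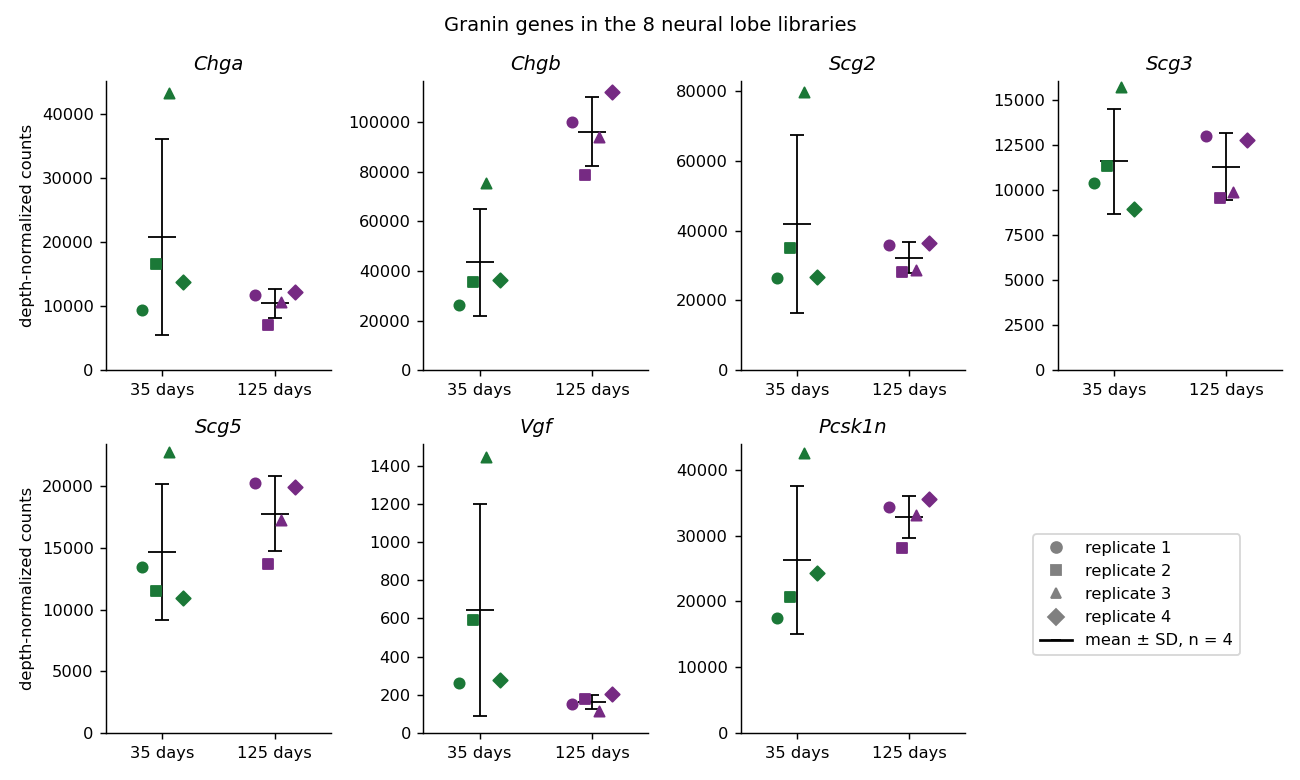
Depth-normalized counts of the 7 granin genes (vertical axes start at 0) at 35 and 125 days, with 1 point per library, its shape giving the replicate number, and the mean with SD bars (n = 4). Chgb is the member with every 125-day library above every 35-day library, Vgf the member with every 125-day library below, and 35-day replicate 3 is the highest 35-day library in all 7 panels.

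Chgb encodes chromogranin B, a matrix protein of the vesicle core. Its values were 26277, 35703, 75303 and 36543 in 35-day replicates 1 to 4 and 100006, 78652, 93827 and 112070 in the 125-day replicates. The ages did not overlap, as for 13.4% of all genes in that direction, although 35-day replicate 3 came close to the lowest 125-day library. The mean went from 43456 ± 21735 to 96139 ± 13903 (SD, n = 4). The fitted change was 1.25 on the log2 scale (SE 0.29, adjusted p = 0.0149). Without 35-day replicate 3 the log2 change was 1.55 (SE 0.16, adjusted p = 1.35e-04). It did not pass without 125-day replicate 4 (log2 change 1.17, adjusted p = 0.0517), where 10.6% of all genes were called, 4.8% higher and 5.77% lower. Nor did it pass with the level of intermediate lobe markers as a covariate (1.17, SE 0.33, adjusted p = 0.0544), where 10.7% were called, 5% higher and 5.65% lower. That level gives Gulo, at 0 to 7.63, the same weight as each other marker, so it is an imperfect measure of lobe content. Adding the level of anterior lobe markers as a covariate gave a change of 1.99 (SE 0.22, adjusted p = 5.79e-04). That level weights its markers equally too, among them Ghrhr at 6.09 to 377, and it differed by -2.57 between the ages. It is likewise an imperfect measure of lobe content.

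Chga encodes chromogranin A, the other chromogranin of endocrine granules and the source of several peptides. It stood at 9414, 16492, 43201 and 13774 at 35 days and at 11762, 7092, 10651 and 12156 at 125 days. Replicate 3 was 3.27 times the mean of the other 35-day libraries, and the ages overlapped. The log2 change was -0.77 (SE 0.40, adjusted p = 0.216), with a 95% interval from -1.66 to 0.11. It was -0.34 (SE 0.22) without 35-day replicate 3 and changed sign to 0.36 (SE 0.20, adjusted p = 0.260) with the anterior lobe covariate.

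Within 35 days the values of Chga, Scg2 and Vgf were ordered like the anterior lobe level, from replicate 3 through 2 and 4 down to 1. At 125 days replicate 2 had the lowest level of both the anterior and the intermediate lobe markers. It was also the lowest 125-day library for the 6 members other than Vgf, which was second highest there. The part of RNA from either lobe in these values was not tested.

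Scg2 encodes secretogranin II, the precursor of the peptide secretoneurin. Its values were 26469, 35040, 79651 and 26680 at 35 days and 35752, 28183, 28626 and 36430 at 125 days. Apart from 35-day replicate 3, all 7 libraries lay between 26469 and 36430. The log2 change was -0.23 (SE 0.32, adjusted p = 0.669), and 0.14 (SE 0.14, adjusted p = 0.480) without that library. With the anterior lobe covariate it was 0.54 (SE 0.27, adjusted p = 0.224).

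Scg3 encodes secretogranin III, which binds chromogranin A and the cholesterol-rich vesicle membrane. Values of 10389, 11315, 15689 and 8936 at 35 days and 12998, 9543, 9871 and 12774 at 125 days overlapped throughout. Its log2 change was the nearest to 0 of the 7, at -0.02 (SE 0.18, adjusted p = 0.958), with a 95% interval from -0.42 to 0.38. It was 0.14 (SE 0.13) without 35-day replicate 3 and 0.33 (SE 0.19) with the anterior lobe covariate.

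Vgf encodes a neurotrophin-inducible precursor of several neuropeptides. It was read at 259, 593, 1448 and 278 at 35 days and at 149, 179, 117 and 204 at 125 days. The ages did not overlap, as for 11.5% of all genes in that direction, and at 35 days the highest value was 5.59 times the lowest, the widest range of the 7 members. From a mean of 645 ± 557 it fell to 162 ± 37.6, a change of -1.64 on the log2 scale (SE 0.48, adjusted p = 0.0400). Without 35-day replicate 3 the log2 change was -1.13 (SE 0.29, adjusted p = 0.0158). Vgf did not pass in limma without a trend (adjusted p = 0.0641, 8.4% of all genes called lower), nor with the replicate number as a block (adjusted p = 0.0569, 7.97% lower). It did not pass with the intermediate lobe covariate (log2 change -1.58, adjusted p = 0.110), nor on leaving out 35-day replicate 2 or a 125-day library (log2 changes from -1.76 to -1.497, adjusted p from 0.0676 to 0.108). With the anterior lobe covariate the change was -0.56 (SE 0.45, adjusted p = 0.445). The share of anterior lobe RNA in the 35-day values was not tested.

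Scg5 and Pcsk1n are the members known for acting on the convertases. The protein 7B2 accompanies prohormone convertase 2 through the secretory pathway and inhibits it until it is cut, and proSAAS inhibits prohormone convertase 1. Scg5 was at 13473, 11516, 22763 and 10976 at 35 days and at 20299, 13704, 17221 and 19915 at 125 days. Each 125-day library was above 35-day replicates 1, 2 and 4 and below replicate 3. Its log2 change was 0.32 (SE 0.23, adjusted p = 0.368) and, without 35-day replicate 3, 0.56 (SE 0.14, adjusted p = 0.0130). It was 0.76 (SE 0.25, adjusted p = 0.0671) with the anterior lobe covariate.

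Pcsk1n showed the same arrangement. It was at 17431, 20647, 42618 and 24338 at 35 days and at 34371, 28207, 33200 and 35631 at 125 days, where its highest library was 1.26 times its lowest. The log2 change was 0.40 (SE 0.24, adjusted p = 0.290). It was 0.67 (SE 0.12, adjusted p = 0.00364) without 35-day replicate 3 and 1.01 (SE 0.20, adjusted p = 0.0104) with the anterior lobe covariate.

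Leaving out 35-day replicate 3 therefore gave 3 members higher (Chgb, Scg5 and Pcsk1n) and 1 lower (Vgf), in a fit that called 30.7% of all genes, 15.9% higher and 14.8% lower. With the anterior lobe covariate 2 members were higher (Chgb and Pcsk1n) and none was lower, where 14.4% of all genes were called, 7.14% higher and 7.25% lower. With 35-day replicates 2 and 3 both left out, an alternative chosen after seeing the data, Chgb and Pcsk1n were higher and Vgf was lower (19.4% of all genes called, 10.4% higher and 9.04% lower). The Vgf change was then -0.75 (SE 0.22, adjusted p = 0.0422).

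**Figure D2:**
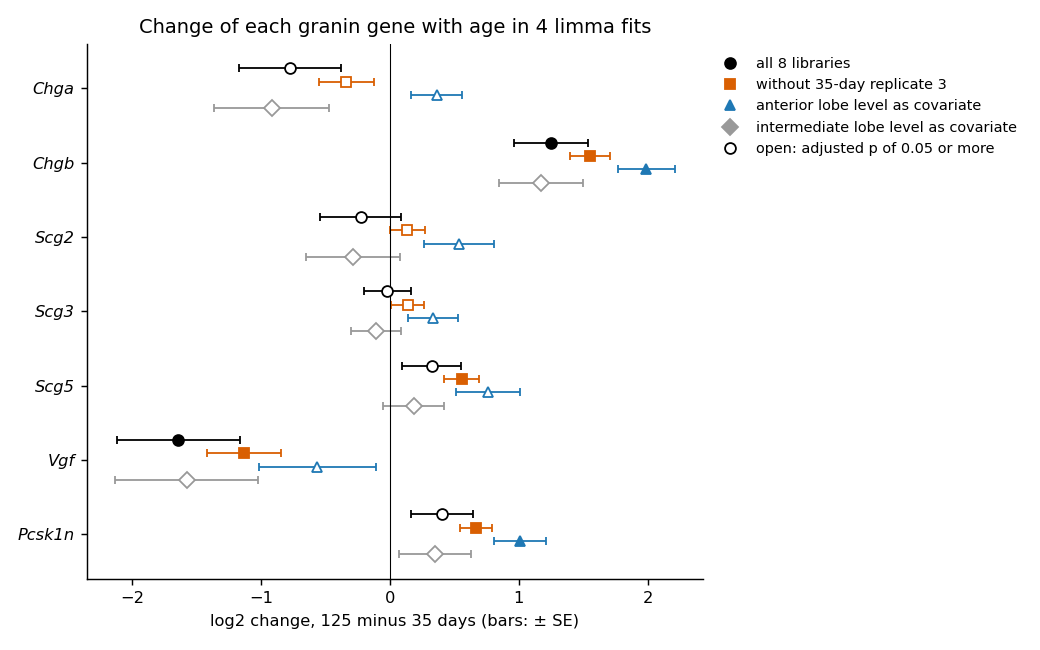
Log2 change of each granin gene from 35 to 125 days (horizontal axis, bars are ± SE) in 4 limma fits, with filled symbols where the adjusted p was below 0.05. Chgb lies between 1.17 and 1.99 in these fits and Vgf between -1.64 and -0.56, while Chga, Scg2 and Scg3 lie above 0 with the anterior lobe covariate and below 0 in the fit of all 8 libraries with no covariate.

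35-day replicate 1 had an anterior lobe level of 8.66, near the 8.83 to 9.01 of 125-day replicates 1, 3 and 4, and the members' values in these 4 libraries are given side by side. The match is in the mean of the 11 markers and not in each: Lhb was at 4014 in the younger library against 308 to 800 in the older ones, and Fshb at 2976 against 683 to 1017. Gh1, at 3922 against 9327 to 33802, and Pou1f1, at 20.7 against 53.8 to 276, stood the other way. Pomc was not matched, at 2248920 against 4374430 to 5272640, and the intermediate lobe level was 12.31 against 12.44 to 12.58. Per 1000 Pomc reads Chgb was at 11.7 against 19.9 to 21.4. On that scale Pcsk1n was at 7.75 against 6.76 to 7.59 and Scg5 at 5.99 against 3.78 to 4.04. The values below are not set against Pomc. Chgb was at 26277 in the younger library and at 93827 to 112070 in the older ones. Pcsk1n was at 17431 against 33200 to 35631, and Scg5 at 13473 against 17221 to 20299. Chga (9414 against 10651 to 12156) and Scg2 (26469 against 28626 to 36430) were closer. Scg3, at 10389, lay inside its 125-day range of 9871 to 12998. Vgf was the member with a higher younger value, 259 against 117 to 204. With 1 library of 35 days this is a description with no test.

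**Figure D3:**
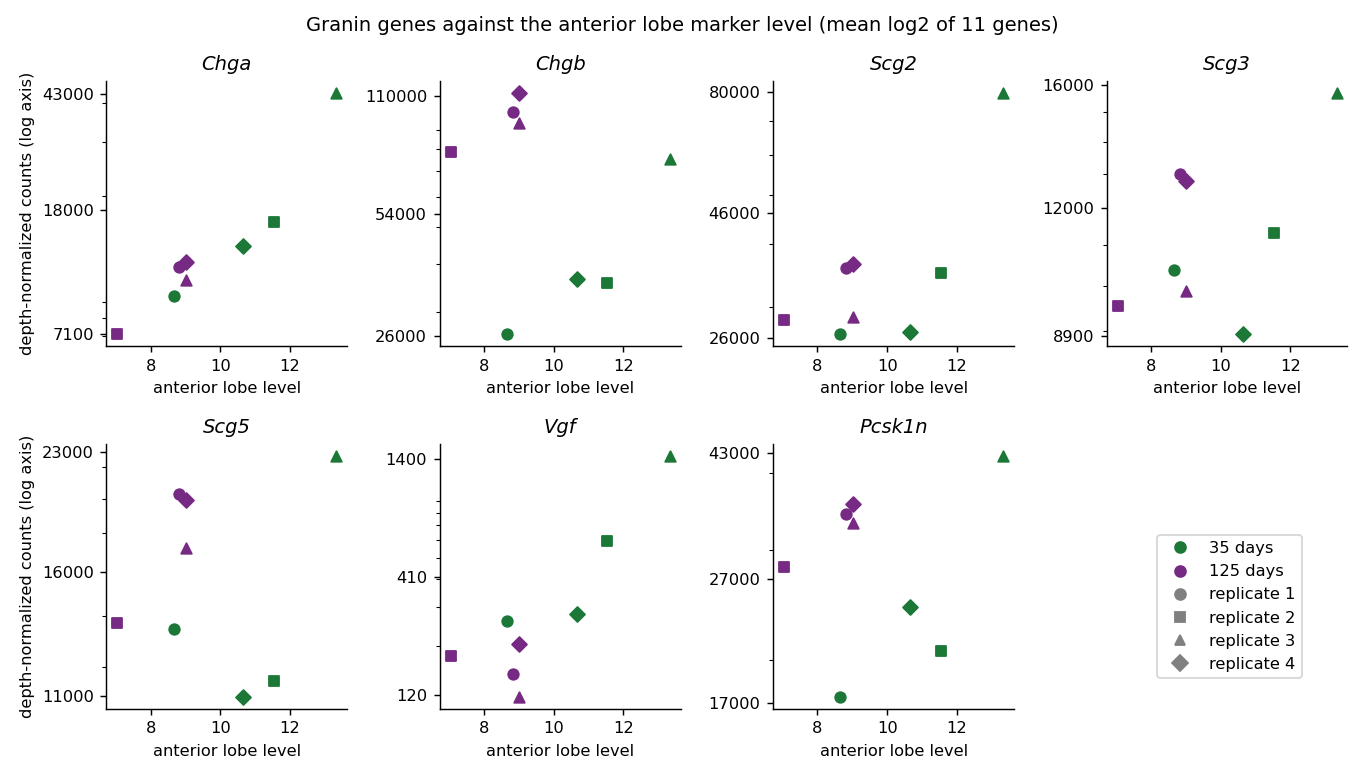
Depth-normalized counts of each granin gene (vertical log axes) against the anterior lobe marker level of the library (horizontal axes, mean log2(value + 1) of 11 genes), coloured by age and shaped by replicate. At levels near 9 the 125-day libraries lie well above the 35-day library for Chgb and Pcsk1n and below it for Vgf, and 35-day replicate 3 stands at 13.32 on the right of each panel. Pomc, not shown, was at 2248920 in 35-day replicate 1 and at 4374430 to 5272640 in 125-day replicates 1, 3 and 4.

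Ratios of reads within a library do not depend on how libraries were scaled. The number of Chgb reads per Chga read was 2.79, 2.16, 1.74 and 2.65 in the 35-day replicates and 8.50, 11.1, 8.81 and 9.22 in the 125-day replicates. All 4 older libraries were thus above all 4 younger ones, 35-day replicate 3 included, as for 15.2% of all genes set over Chga in the same way. The mean ratio went from 2.34 ± 0.479 to 9.41 ± 1.16 (SD, n = 4). Chgb reads per Scg2 read were at 0.945 to 1.37 and at 2.79 to 3.28 (5.9% of all genes were higher per Scg2 read without overlap). Per Pcsk1n read they were at 1.50 to 1.77 and at 2.79 to 3.15 (1.95% of all genes). Vgf reads per Scg2 read were at 0.00980 to 0.0182 at 35 days and at 0.00410 to 0.00635 at 125 days, without overlap (2.12% of all genes were lower per Scg2 read in this way). Vgf reads per Chga read overlapped between the ages, at 0.0202 to 0.0360 and at 0.0110 to 0.0252. Chga reads per Scg2 read overlapped too, at 0.356 to 0.542 and at 0.252 to 0.372. Gene length cancels in the change of such a ratio with age, but not in the ratio itself.

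Against Pomc the picture differed. There were 11.7, 18.2, 20.2 and 16.3 Chgb reads per 1000 Pomc reads at 35 days and 19.9, 22.1, 21.4 and 21.3 at 125 days, and the ages overlapped. For Chga the ratio lay between 4.19 and 11.6 in the younger libraries and between 1.99 and 2.43 in the older. Scg2, Scg3, Scg5 and Vgf were also lower per Pomc read in every 125-day library, and Pcsk1n overlapped (7.75 to 11.4 against 6.76 to 7.93). Over all genes tested 40.4% were lower per Pomc read without overlap, and 0.815% higher.

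The 7 granins together took 0.297 to 0.771% of the reads at 35 days, with the top value in replicate 3, and 0.471 to 0.620% at 125 days. Pomc took 5.65 to 10.2% and 10.1 to 14.3% in the same libraries.

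**Figure D4:**
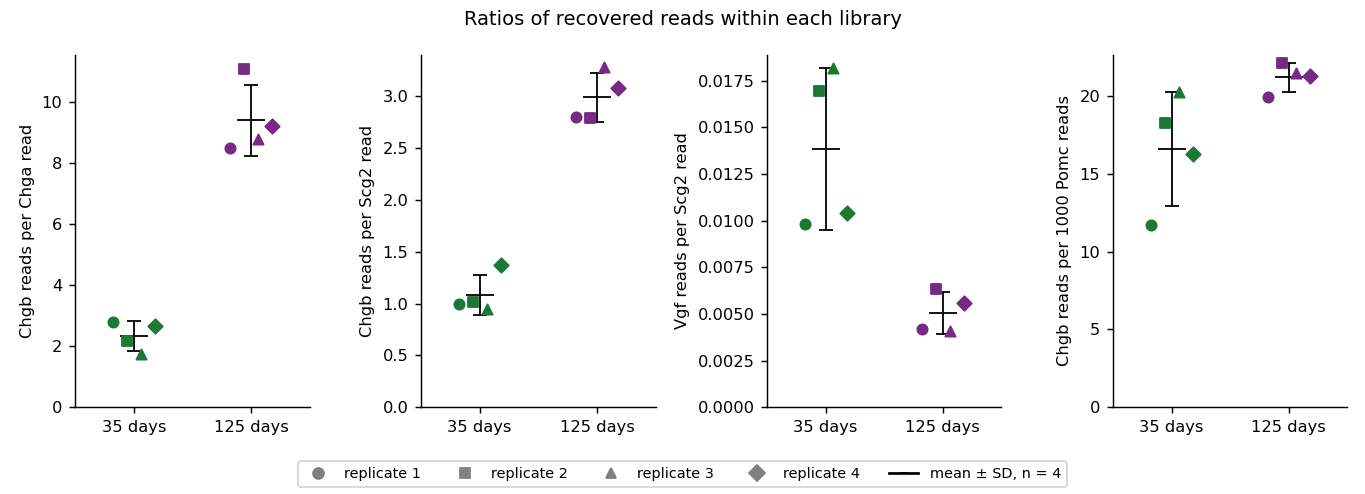
Ratios of recovered reads within each library at 35 and 125 days (vertical axes start at 0), with 1 point per library and the mean with SD bars (n = 4). Chgb per Chga read is at 1.74 to 2.79 at 35 days and at 8.50 to 11.1 at 125 days, while Chgb per 1000 Pomc reads overlaps between the ages.

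The genes nearest to each granin were found by the root mean square difference between log2 profiles centred on their mean over the 8 libraries, among 12804 genes with a mean of at least 100, leaving out provisional symbols. Because 35-day replicate 3 stands high for every granin, genes high in that library come near. Nearest to Chga was Isl1, a LIM homeobox gene of endocrine and neuronal cells, at a difference of 0.13 (median over candidates 0.76). It was at 103, 203, 440 and 177 at 35 days and at 121, 72.3, 115 and 120 at 125 days. Htatsf1 (0.19) and Dscaml1 (0.24) came next. Nearest to Chgb were C1qtnf4 (0.15), the retinoic acid synthesis gene Aldh1a2 (0.16) and the cadherin gene Cdh18 (0.20). All 3 were called higher at 125 days (adjusted p = 0.0120, 0.0446 and 0.0112), against 8.85% of all genes, and the Aldh1a2 call was lost under 12 of 22 alternatives. All 3 had overlapping ages, each with 35-day replicate 3 above 125-day replicate 2. For Vgf the nearest were Igsf21 (0.33), Asb4 (0.36) and Cartpt (0.38), the last a neuropeptide precursor gene. Igsf21 (adjusted p = 0.0123) and Asb4 (adjusted p = 0.00687) were called lower and Cartpt was not (adjusted p = 0.0686). The neighbours of Chgb and Vgf were picked for likeness to a called gene, so their calls are no separate result. Pcsk1n had the closest neighbours, Emc9 (0.06), Rnf112 (0.08) and Tmie (0.09), and Scg5 had Sms (0.09), Hebp2 (0.11) and Prorsd1 (0.11). The remaining neighbours were Gadd45g (0.17), Ndufb7 (0.18) and H2aj (0.18) for Scg2, and Krtcap2 (0.08), Mad2l1bp (0.09) and Acot13 (0.09) for Scg3.

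Of 11 genes for prohormone processing, 2 were higher at 125 days and none was lower, with a list median of 0.25. Over all genes tested 8.85% were higher and 8.87% lower, and the counts of each list are read against those shares. Pcsk1, the convertase that proSAAS inhibits, rose from 3771 ± 756 to 11043 ± 1259 (log2 change 1.57, SE 0.15, adjusted p = 1.46e-04). Its call held under all 22 alternatives. Pcsk2, the convertase that 7B2 accompanies, rose from 19810 ± 4603 to 33627 ± 4725 (log2 change 0.79, SE 0.19, adjusted p = 0.0193). With the anterior lobe covariate the change was 0.50 (adjusted p = 0.184), and with the intermediate lobe covariate 0.72 (adjusted p = 0.0681). Without 125-day replicate 1 or 4 it was 0.70 (adjusted p = 0.0640) or 0.77 (adjusted p = 0.0605), so the call was lost in these 4 fits. There were 3.83, 5.66, 15.3 and 5.92 Pcsk1n reads per Pcsk1 read at 35 days, and 2.71, 2.83, 2.92 and 3.51 at 125 days. The ages did not overlap, but 91% of all genes were lower per Pcsk1 read without overlap. For Scg5 per Pcsk2 read the ages overlapped, at 0.495 to 1.76 and 0.462 to 0.571. The carboxypeptidase gene Cpe, which trims the cut peptides, had a log2 change of 0.38 (SE 0.17, adjusted p = 0.150), and the amidating enzyme gene Pam 0.25 (SE 0.11, adjusted p = 0.154).

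Of 19 genes for vesicle biogenesis and the vesicle membrane, 4 were higher and 1 was lower (list median 0.13), against 8.85% and 8.87% of all genes. Ptprn, encoding the vesicle membrane protein IA-2, rose from 12993 ± 1900 to 21789 ± 2499 (log2 change 0.75, SE 0.13, adjusted p = 0.00390), without overlap. The vesicle glycoprotein gene Sv2a (log2 change 0.53, SE 0.09, adjusted p = 0.00414) and the proton pump accessory gene Atp6ap2 (0.48, SE 0.10, adjusted p = 0.0105) rose too. These 3 calls held under all 22 alternatives. The sorting receptor gene Sort1 rose (log2 change 0.52, SE 0.16, adjusted p = 0.0434) and its relative Sorl1 fell (-0.59, SE 0.18, adjusted p = 0.0458). Each of these calls was lost under 10 of 22 alternatives, and the ages overlapped for Sorl1 but not for Sort1. Ptprn2, the relative of Ptprn, had a log2 change of 0.08 (SE 0.16, adjusted p = 0.778).

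Of 26 genes for vesicle docking and release, 6 were higher and 2 were lower (list median 0.27), against 8.85% and 8.87% of all genes. Syt4, a synaptotagmin of dense-core vesicles, rose from 16213 ± 3018 to 40767 ± 5623 (log2 change 1.34, SE 0.16, adjusted p = 4.96e-04). Cadps, which primes dense-core vesicles for release, rose 0.67 (SE 0.12, adjusted p = 0.00409). The SNARE gene Snap25 rose 0.53 (SE 0.13, adjusted p = 0.0176), a call lost under 7 of 22 alternatives. Stx1a fell by 0.41 on the log2 scale (SE 0.11, adjusted p = 0.0252) and Syt5 by 0.37 (SE 0.11, adjusted p = 0.0384), calls lost under 8 and 11 of 22 alternatives.

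Peptide precursors share the vesicle with granins, and 11 of 17 listed could be tested. Of these, 4 were higher and 1 was lower (list median 0.31), against 8.85% and 8.87% of all genes. The opioid precursor gene Pdyn rose from a mean of 1264 ± 123 to 6449 ± 646 (log2 change 2.35, SE 0.11, adjusted p = 3.15e-06). Penk (log2 change 0.92, SE 0.25, adjusted p = 0.0311), Adcyap1 (1.19, SE 0.32, adjusted p = 0.0311) and Oxt (0.82, SE 0.21, adjusted p = 0.0235) were higher, and Npy was lower (-0.84, SE 0.24, adjusted p = 0.0349). The calls of Penk and Oxt were lost under 7 of 22 alternatives each, and the ages overlapped for both. The Adcyap1 call, on values of 7.30 to 41.1, was lost under 8 of 21, and the Npy call under 6 of 22. Avp had a log2 change of -0.24 (SE 0.22, adjusted p = 0.502).

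Among 17 tested regulators of granin transcription, 2 were higher and 2 were lower (list median 0.01), against 8.85% and 8.87% of all genes. Bdnf, a neurotrophin known to induce Vgf in neurons, rose from 396 ± 77.4 to 1357 ± 124 (log2 change 1.79, SE 0.15, adjusted p = 5.40e-05). Vgf was called lower, a call lost under 9 of 22 alternatives. Whether Bdnf and Vgf reads came from the same cells was not tested. The Bdnf receptor gene Ntrk2 fell by 0.79 on the log2 scale (SE 0.21, adjusted p = 0.0272), with overlapping ages and a call lost under 7 of 22 alternatives. Crem, encoding factors that bind the CRE, rose 1.13 (SE 0.20, adjusted p = 0.00389). Neurod1 fell by 1.46 (SE 0.30, adjusted p = 0.00864), and with the anterior lobe covariate its change was -0.83 (SE 0.31, adjusted p = 0.106), which did not pass. Creb1 (log2 change -0.04, SE 0.11, adjusted p = 0.862) and Rest, encoding a repressor of neuronal genes (-0.27, SE 0.17, adjusted p = 0.322), did not pass.

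Of 5 genes reported as receptors or binding proteins of granin peptides, 1 was lower, against 8.87% of all genes. Gpr83, reported to bind a proSAAS peptide, was at 36.5, 74.4, 26.2 and 59.3 at 35 days and at 3.05, 6.84, 5.04 and 6.84 at 125 days. Its log2 change was -2.90 (SE 0.38, adjusted p = 7.76e-04), and the call held under all 21 alternatives in which the gene was tested. All its 125-day values were below the filter's minimum of 10, so it entered the test through the 35-day libraries alone, and its lowest library had 3 reads. C3ar1, reported to bind a VGF peptide, had a log2 change of -0.29 (SE 0.23, adjusted p = 0.437), and Gpr171, reported for another proSAAS peptide, -0.14 (SE 0.27, adjusted p = 0.763).

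**Figure D5:**
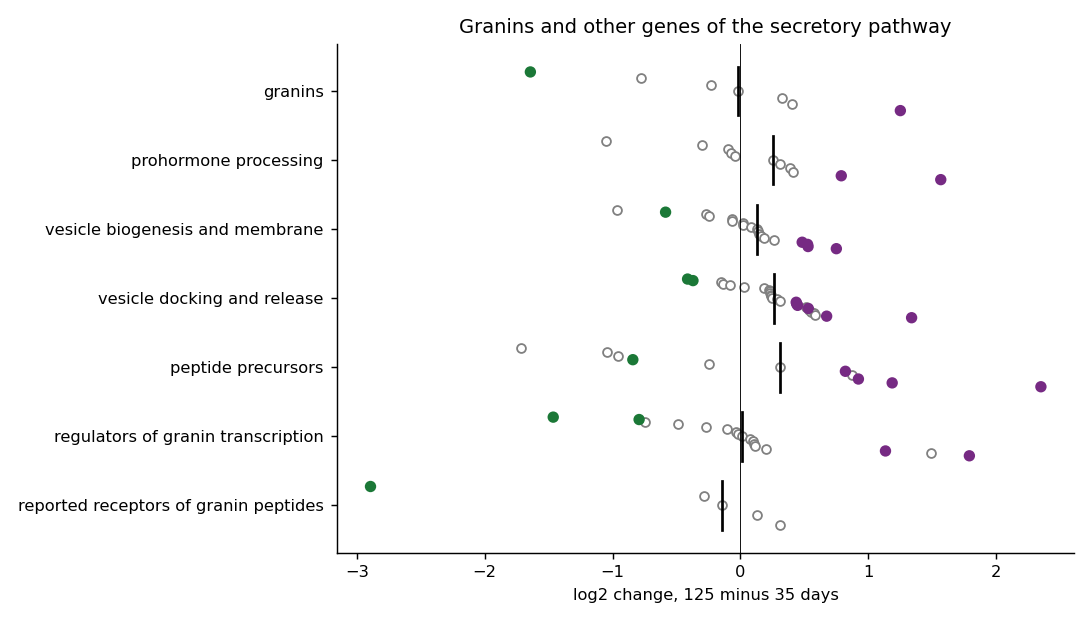
Log2 change from 35 to 125 days (horizontal axis) of the granins and of 6 gene lists, with 1 point per gene tested, filled purple (higher) or green (lower) where the adjusted p was below 0.05, and a black line at each median. The granin median is at -0.02, and the highest list median, 0.31, is that of the peptide precursors, with Pdyn at 2.35.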

How the data were processed

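RNA sequencing values came from 1 deposited table of 33294 genes and 8 libraries, 4 per age, mapped by column name to the sample labels. The authors deposited a depth-normalized signal, which the values show to be read counts over 1 size factor per library: 100% are whole multiples of what 1 read is worth (tolerance 0.001 reads). Tools named in the submitters' processing notes are Trimmomatic 0.39, HISAT2 2.2.1, SAMtools 1.13, featureCounts (Subread 2.0.1) and DESeq2 1.34.0, with build rn7. No source used here gives the annotation or the strand setting, so overlapping or antisense genes cannot be told apart.

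Depth was 28429133 to 58696254 recovered reads. Libraries of the same age differed by 14.2 to 260.0 times the sampling variance, so none was treated as a copy. The test was limma 3.58.1 (R 4.3.3) with a trend on log2(value + 1), which understates changes of low genes. Age was the only term. It covered the 17919 genes that reached a value of 10 in 4 or more libraries, and was checked on simulated data. Marker levels were compared by two-sided exact permutation over 70 arrangements. Alternatives were other pseudocounts, filters and scalings, no trend, edgeR 4.0.16, DESeq2 1.42.0 (both run on recovered reads), the replicate block, the 2 lobe covariates and each library left out. The members, lists and tests were chosen with earlier results of these data known. Genes named are the members, up to 4 called genes per list with the lowest adjusted p, 3 nearest profiles per member, and Avp, Oxt, Pomc, Gh1 and Prl. Others named were chosen after their values were seen.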

Additional observations from a re-analysis of the deposited data

Results flagged for a closer look

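In 22 of 118 groups of 4 libraries checked, the highest or lowest library stood further from the others than Dixon's test allows at the 95% level, where chance gives about 1 in 20. Among the granins this was Scg2, at 79651 in 35-day replicate 3 against 35040 in the next library. The same library was highest for Pomc (3724080), Gh1 (975243), Neurod1 (209), Htatsf1 (11370), C1qtnf4 (306), Gadd45g (455), Ndufb7 (2426), H2aj (1165), Mad2l1bp (296), Hebp2 (264) and Igsf21 (386), and lowest for Pcsk2 (12949). At 35 days, replicate 4 was low for Crem (1907). At 125 days, replicate 2 was low for the anterior lobe marker level (7.04 against 8.83 in the next library), Isl1 (72.3), Dscaml1 (57.7), C1qtnf4 (300.1), Prorsd1 (266) and Pdyn (5487), and high for Sort1 (8542). Syt5 was high in 125-day replicate 1 (1753). Genes named for a profile near a granin share its high or low libraries by that choice.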

How the results depend on the processing

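No result changed direction past the threshold. All genes called numbered 3174, and 1909 with the intermediate lobe covariate. Granins called higher numbered 1, against 2 with the anterior lobe covariate, 0 with the intermediate lobe covariate and 2 without 35-day replicates 2 and 3. Granins called lower numbered 1, against 0 without a trend, 0 with the replicate block and 0 with either lobe covariate. The cause was not tested. The replicate numbers gave no clear sign of pairing: deviations of same-numbered libraries correlated at 0.04, 0.17, -0.0002 and -0.12, and 1 of 4 matched its own number best. Whether same-numbered libraries were handled together was not tested. The share of all genes called moved with the fit as well, so the list counts that follow are not results about the lists. It was 17.7% in the first fit, 14.4% with the anterior and 10.7% with the intermediate lobe covariate. Without 35-day replicates 2 and 3 it was 19.4%. For the other fits named in the list counts the share in either direction is not given here. Called genes for prohormone processing numbered 2, against 4 by DESeq2 and 1 with either lobe covariate. For vesicle biogenesis they numbered 5, against 3 without a filter, 3 without a trend and 3 with the intermediate lobe covariate. For docking and release they numbered 8, against 4 without a trend, 5 with the replicate block, 4 with the anterior and 3 with the intermediate lobe covariate, and 5 without 35-day replicates 2 and 3. For peptide precursors they numbered 5, against 3 with the anterior lobe covariate. For receptors they numbered 1, against 0 with a mean of at least 50 (Gpr83 was then not tested), 2 with the anterior lobe covariate and 2 without 35-day replicates 2 and 3. Leaving out 1 library at a time gave 1894 (without 125-day replicate 4) to 5495 (without 35-day replicate 3) genes called, 0 to 3 granins higher and 0 to 1 lower. It gave 1 to 4 for processing, 3 to 9 for biogenesis, 2 to 11 for docking, 1 to 6 for precursors, 1 to 2 for receptors and 3 to 5 for regulators, the highest without 35-day replicate 3 for the first 5 of these lists. That fit called 30.7% of all genes, against 17.7% with all 8 libraries. Among the granins depth limits Vgf most, with 93 reads in its lowest library, and among other called genes Gpr83 had 3 and Adcyap1 6.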
